A study of Mus musculus with 2 samples.

Results

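The 9 genes of lipid transport and storage, Apoe, Apod, Pltp, Lpl, Cd36, Fabp4, Fabp5, Plin2 and Lrp1, were examined in single dermal cells of the Pdgfra lineage of mice left untreated (UT) or given imiquimod (IMQ). The 9 genes were taken by name from the 31053 genes of the count matrices, with earlier results of these data known. They were described by level, by the share of cells in which they were seen, by their presence in the same cells as Pi16, a marker of fascial and adventitial fibroblasts, and by the ratio of IMQ over UT. C57BL/6 mice of genotype PdgfraDreER-tdTomato, 8 weeks old, supplied both groups. In these mice tamoxifen activates a Dre recombinase under Pdgfra, so that cells that expressed Pdgfra at that time, and their progeny, carry tdTomato. Imiquimod, a Toll-like receptor agonist that induces psoriasis-like inflammation, was given for 7 days to the IMQ group. Live dermal cells without CD45 and with tdTomato were sorted, and 1 library was made per group. No value therefore has a replicate, no test was run, and each interval is an exact 95% interval that covers counting error only.

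Lipids travel between cells in particles wrapped by apolipoproteins. Apoe coats such particles and is their ligand at lipoprotein receptors, among them Lrp1. Apod is a lipocalin that binds small lipids, and Pltp moves phospholipids between particles. Lpl, once anchored at the capillary wall, releases fatty acids from triglyceride. Cd36 takes fatty acids up, Fabp4 and Fabp5 carry them in the cytosol, and Plin2 coats lipid droplets. In skin, Cd36 and Fabp4 are known from capillary endothelium, adipocytes and macrophages, Fabp5 from keratinocytes, and Pi16 fibroblasts from the fascia below the dermis, where adipocyte precursors also lie.

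Barcodes with 200 to 5000 detected genes and at most 5% of their unique molecular identifiers (UMIs) from mitochondrial (mt-) genes were kept, which were 1045 of 1415 in UT and 571 of 5047 in IMQ. A wider set with at most 10% mt- UMIs held 1301 and 1043 barcodes. The median kept barcode had 741 UMIs in UT and 659 in IMQ. Gm42418, a transcript that overlaps ribosomal RNA, took 1.38% of UMIs in UT and 14.6% in IMQ. When UMIs were scaled to 1000000 per library (CPM), the log2 ratio of IMQ over UT had a median of -0.61 over the 8129 genes with at least 10 UMIs, and -0.69 in the wider set. TMM scaling moved that median to -0.02, so the ratio of each measured member over all kept barcodes is also given relative to the median gene. Ratios within classes of cells, in the wider set and of single list genes are mostly given in CPM alone. At least 3 UMIs of 7 fibroblast markers were seen in 982 of 1045 barcodes in UT and 565 of 571 in IMQ. This limit does not by itself mark a fibroblast, since a UT barcode with 960 UMIs of keratinocyte markers also had 3. A few barcodes carried at least 3 markers and 5 UMIs of another cell type, of which UT had 2 with keratinocyte, 1 with endothelial and 5 with class II genes, and IMQ had 3 with class II genes. The 2 keratinocyte-marker barcodes were large and held 4.35% of all kept UT UMIs. Adipocyte markers were near absent, with 7 of 9 at 0 in UT and 6 of 9 at 0 in IMQ, Adipoq and Plin1 among them in both. One barcode sequence occurred in both deposited matrices, and 0 were shared among barcodes with at most 10% mt- UMIs.

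The lipid genes were close to the general shift between the libraries. Of the 9 members, 7 had at least 10 UMIs over both libraries, and their median log2 ratio was -0.40, against -0.61 over all genes. At least 2-fold lower in IMQ was 1 member, Fabp5, where 32.1% of all genes were, and at least 2-fold higher were 0 members, where 4.03% of all genes were. Relative to the median gene, 5 of the 7 lay above it and 2 below. In the wider set all 9 could be measured, with 1 lower, again Fabp5, against 34.7% of all genes, and 2 higher, Cd36 and Fabp4, against 3.78%.

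**Figure D1:**
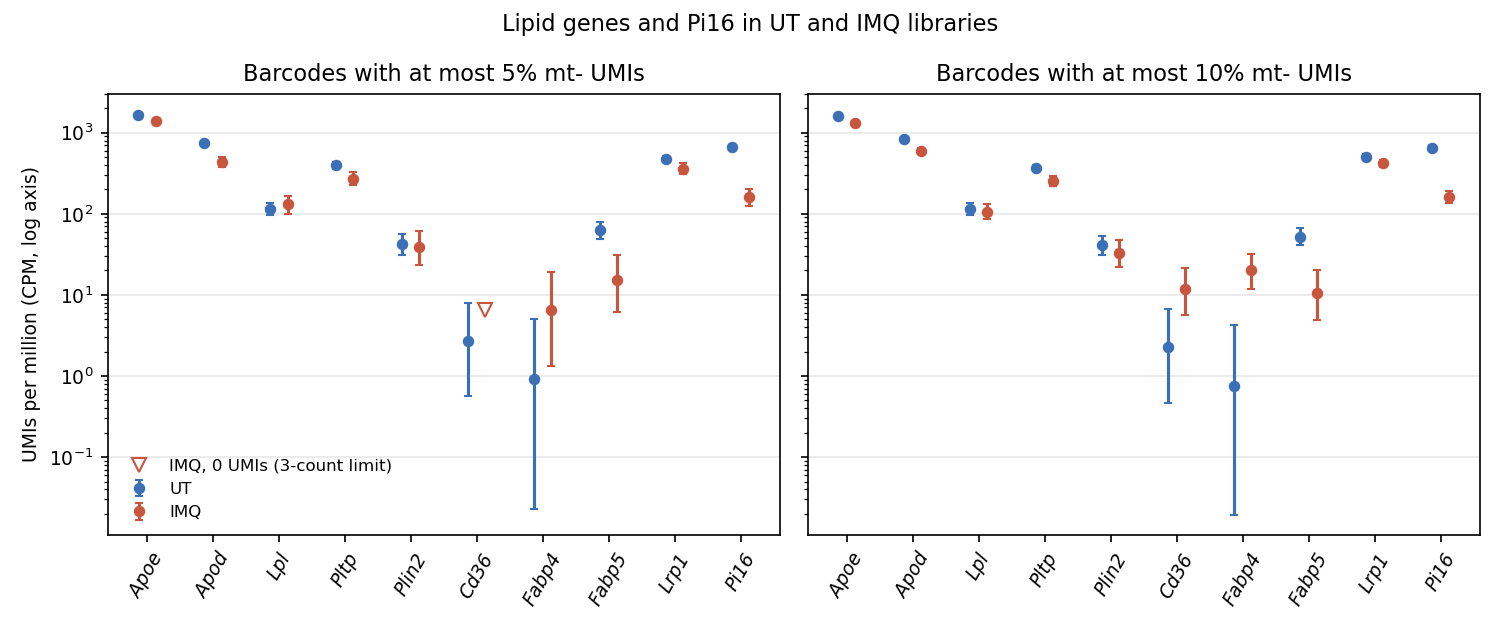
CPM on a log axis for the 9 lipid genes and Pi16 in UT (blue) and IMQ (red), in barcodes with at most 5% (left) and at most 10% (right) mt- UMIs. Points are library totals, bars are exact 95% Poisson intervals, and the open triangle marks the limit that 3 counts allow where no UMI was seen. The pairs for Apoe, Lpl, Plin2 and Lrp1 lie close together, Fabp5 and Pi16 lie lower in IMQ, and Cd36 and Fabp4 rest on few UMIs.

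Among the particle proteins, Apoe (ENSMUSG00000002985, chromosome 7, 19696109 to 19699188, minus strand, GRCm38) was measured at 1642 CPM in UT (1567 to 1719) and 1375 CPM in IMQ (1270 to 1487). These intervals do not overlap, and the IMQ library is the lower one. The log2 ratio was -0.26 (-0.39 to -0.12), which is 0.36 above the median gene, and under TMM scaling it turned to 0.34. Apoe was seen in 46.1% of cells in UT (43.1% to 49.2%) and in 41.5% in IMQ (37.4% to 45.7%). With every cell thinned to 400 UMIs, which left out 73 UT and 33 IMQ cells, these shares became 31.5% and 30.5%, with overlapping intervals. Before thinning, 5 or more Apoe UMIs were counted in 114 cells in UT (of 1045) and 21 in IMQ (of 571). These counts were not matched for depth, as cells with Apoe had a median of 933.5 UMIs in UT and 736 in IMQ. The leading IMQ barcodes, of 5689, 7310 and 7713 UMIs, held 33, 32 and 27 Apoe UMIs but 6, 7 and 4 fibroblast-marker UMIs. In UT the leading one held 56 Apoe and 4 fibroblast-marker UMIs, and the next 41 and 151. The cell type of these barcodes was not tested.

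Apod (chromosome 16, 31296192 to 31314808, minus strand) had 743 CPM in UT (693 to 796) and 440 CPM in IMQ (382 to 505), a log2 ratio of -0.75 (-0.98 to -0.53). This is -0.14 relative to the median gene. Of the members with over 100 UMIs in each library, it was the most unevenly spread. In UT, 1 barcode of 4829 UMIs held 108 Apod UMIs and another of 1297 UMIs held 87, and the 5 leading barcodes held 35.9% of all Apod UMIs. In the wider set an IMQ barcode of only 1163 UMIs held 153, or 30.5% of all Apod UMIs of that library. Those 3 barcodes also carried 288, 106 and 116 UMIs of the fibroblast markers and 0 UMIs of the endothelial, myeloid and keratinocyte lists. Without the leading barcode of each library the log2 ratio was -0.72, and -0.85 in the wider set against -0.48 with it. Thinned to 400 UMIs, Apod was seen in 14.6% of cells in UT (12.4% to 17.0%) and in 10.0% in IMQ (7.63% to 12.9%).

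Pltp (chromosome 2, 164839518 to 164857711, minus strand) overlaps Ctsa on the other strand at its 3′ end, so UMIs there are uncertain unless strand was used in counting. It had 396 CPM in UT (360 to 435) and 271 CPM in IMQ (226 to 323). The log2 ratio of -0.55 (-0.85 to -0.26) was within 0.07 of the median gene, and was 0.05 under TMM scaling. The shares of thinned cells were 10.4% and 9.67%, with overlapping intervals. Before thinning, 5 or more Pltp UMIs were found in 15 barcodes for UT and in 0 for IMQ. The leading cell had 21 in UT and 3 in IMQ. With 0 of 571 cells, an IMQ share of up to 0.525% is allowed. These counts were not matched for depth, and deep cells were more frequent in UT. Barcodes with at least 500 genes numbered 303 in UT and 37 in IMQ. Cells with Pltp had a median of 1078 UMIs in UT and 747 in IMQ. Whether the upper range differs at equal depth was not tested.

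For the lipase and the lipid droplet, the counting intervals of the CPM ratios held 0. Lpl (chromosome 8, 68880491 to 68907448, plus strand) had 115 CPM in UT (95.8 to 137) and 130 CPM in IMQ (99.3 to 168), a log2 ratio of 0.18 (-0.29 to 0.63). Relative to the median gene this is 0.79, and under TMM scaling it was 0.78 (0.31 to 1.23), an interval wholly above 0. In the wider set the log2 ratio was -0.11 (-0.50 to 0.27). Plin2 (chromosome 4, 86648386 to 86670060, minus strand) had 42.5 CPM in UT (31.3 to 56.6) and 39.0 CPM in IMQ (23.1 to 61.7), with only 47 and 18 UMIs. Its log2 ratio was -0.12 (-0.99 to 0.69), which at this depth leaves a difference of nearly 2-fold in the lower direction undetectable. Relative to the median gene, the Plin2 ratio was 0.49.

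Most Fabp5 UMIs in UT came from 2 barcodes, and most Cd36 and Fabp4 UMIs in the wider IMQ set came from 1. Fabp5 (chromosome 3, 10012548 to 10016607, plus strand), which has a processed pseudogene copy that can share reads with it, had 62.5 CPM in UT (48.6 to 79.0) and 15.2 CPM in IMQ (6.11 to 31.3). The log2 ratio was -2.04 (-3.41 to -0.92), the lowest of the 7, and -1.43 relative to the median gene. Of the 69 UT UMIs, 47 came from the 2 barcodes with 960 and 906 UMIs of keratinocyte markers. Without the 11 barcodes that carried markers of other cells, 20 UMIs in UT and 7 in IMQ remained, and the log2 ratio was -0.34 (-1.82 to 0.96). Once those barcodes were left out, 0 of the 7 members were at least 2-fold apart between the libraries in this set. Of all genes, 29.7% were then lower and 4.65% higher in IMQ.

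Cd36 (chromosome 5, 17781690 to 17888801, minus strand) had 3 UMIs in UT and 0 in IMQ, and Fabp4 (chromosome 3, 10204088 to 10208576, minus strand) had 1 and 3, so no ratio is given. Of the 3 Cd36 UMIs, 2 were in a barcode with 192 UMIs of myeloid markers. In the wider set, IMQ had 10 Cd36 and 17 Fabp4 UMIs against 3 and 1 in UT, log2 ratios of 2.37 (0.42 to 4.87) and 4.72 (2.05 to 10.1). A single IMQ barcode of 14973 UMIs with 8.84% mt- UMIs held 9 of the 10 and 11 of the 17, together with 77 UMIs from 8 of the 9 endothelial markers. Without it and the other barcodes of that kind, 1 Cd36 UMI was left in each library, and 6 Fabp4 UMIs were left in IMQ with 0 in UT. Both genes were thus at or near the detection limit outside barcodes with markers of other cell types.

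**Figure D2:**
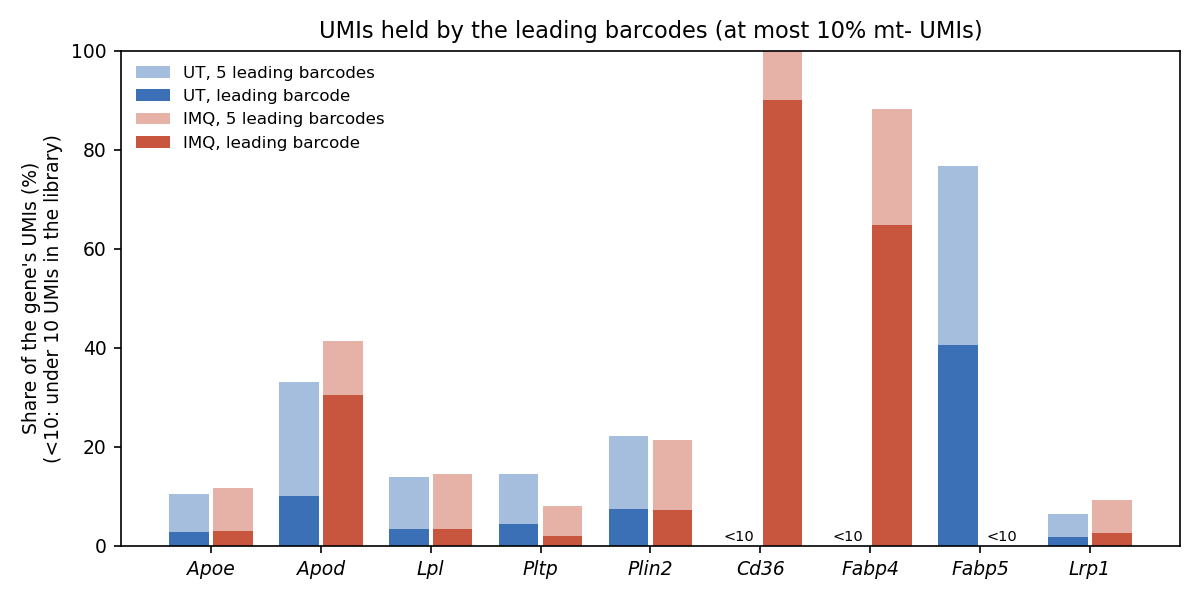
Share of each gene's UMIs, in percent from 0 to 100, held by its leading barcode (dark bars) and its 5 leading barcodes (light bars) in UT (blue) and IMQ (red), at most 10% mt- UMIs. Libraries with under 10 UMIs of a gene have no bar. Cd36, Fabp4 and Fabp5 stand out by 90.0%, 64.7% and 40.6% of UMIs in 1 barcode, and Apod in IMQ by 30.5%.

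Lrp1 (chromosome 10, 127538161 to 127621148, minus strand), the receptor of the group, overlaps the antisense gene Gm16217. It had 472 CPM in UT (433 to 515) and 358 CPM in IMQ (305 to 417), a log2 ratio of -0.40 (-0.66 to -0.15) that is 0.21 above the median gene and 0.20 under TMM scaling. Thinned shares were 14.7% in UT (12.5% to 17.1%) and 10.4% in IMQ (7.96% to 13.3%). In the wider set they were 14.4% and 13.8%. In UT, its 5 leading barcodes held 8.05% of its UMIs, the lowest such share of the 7 measured members.

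**Figure D3:**
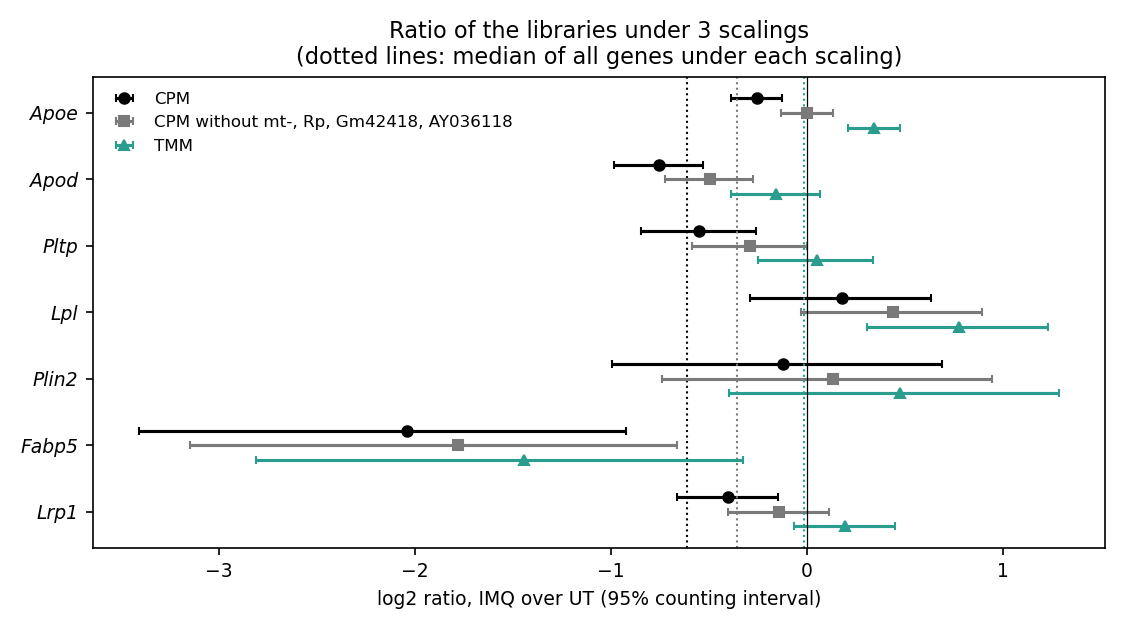
Log2 ratio of IMQ over UT for the 7 members with at least 10 UMIs, under 3 scalings (CPM, CPM without mt-, ribosomal protein, Gm42418 and AY036118 UMIs, and TMM). Bars are exact 95% counting intervals and dotted lines mark the median of all genes under each scaling, at -0.61, -0.35 and -0.02. Apoe, Pltp and Lrp1 lie left of 0 in CPM and right of 0 under TMM, while their distance to the dotted lines is the same.

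The second comparison was between cells with and without a Pi16 UMI. Pi16 (chromosome 17, 29317680 to 29330593, plus strand), which overlaps an antisense gene, had 660 CPM in UT (613 to 710) and 161 CPM in IMQ (126 to 202). A Pi16 UMI was found in 209 of 1045 UT cells and in 47 of 571 IMQ cells. After thinning to 400 UMIs the shares were 13.1% (11.0% to 15.3%) and 5.02% (3.33% to 7.22%). Cells with a Pi16 UMI were deeper in UT, with a median of 1044 UMIs against 687.5, and alike in IMQ, with 661 against 658.5. Pi16 itself was left out of the totals. The cell types that should lack the lipid genes were too few here to give a background share.

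In UT, the phospholipid carrier, the lipase and the droplet coat were higher in cells with a Pi16 UMI. At least 2-fold higher were 3 of the 7 measured members, Pltp, Lpl and Plin2, where 7.30% of all genes were, and at least 2-fold lower was 1, Fabp5, where 14.1% were. Pltp had 852 CPM with and 241 CPM without a Pi16 UMI, a log2 ratio of 1.82 (1.54 to 2.10). Lpl had 209 and 82.7 CPM, a log2 ratio of 1.34 (0.81 to 1.86). Plin2 had 71.0 and 32.8 CPM on 20 and 27 UMIs, a log2 ratio of 1.11 (0.20 to 2.0). Before thinning these intervals lie above 0, and that of Pltp lies above 2-fold as well.

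The other members differed by less. Apod had a log2 ratio of 0.83 (0.62 to 1.04), Lrp1 of 0.78 (0.51 to 1.04) and Apoe of 0.48 (0.33 to 0.62). All 69 Fabp5 UMIs were in cells without a Pi16 UMI. That of Apod depended on single cells and depth, as it was 0.49 without the leading cell of each class and 0.11 (-0.33 to 0.53) in thinned cells. Pltp and Lpl were at 1.73 and 1.35 without their leading cells. In thinned cells they were at 1.49 (0.96 to 2.01) and 1.64 (0.74 to 2.53), so the Pltp interval no longer cleared 2-fold. Plin2 was below 2-fold without its leading cells, at 0.90 (-0.10 to 1.86). In thinned cells Plin2 was at 1.08, with an interval that held 0 (-0.64 to 2.64).

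Shares of thinned cells were also compared. Pltp was seen in 20.5% of the UT cells with a Pi16 UMI and 7.77% of those without, and Lpl in 9.50% and 2.72%. Lrp1 was seen in 42 of 200 such cells with and 101 of 772 without a Pi16 UMI. For Apoe the shares were 32.5% and 31.2%. Cells in which both genes were still seen after thinning numbered 23 for Pltp and Pi16, where the product of the 2 shares gives 13.2, and 28 for Lrp1 and Pi16, where it gives 18.7. For Lpl and Pi16 they numbered 15, where it gives 5.23, but 9 in the wider set, thinned by another draw, where it gives 5.58. The share of Lpl in cells with a Pi16 UMI was then 6.10%. For Apod and Pi16 they numbered 30, where the product gives 18.6, and for Apoe and Pi16 35, where it gives 40.0. With at most 5% mt- UMIs, Pltp, Lpl, Lrp1 and Apod thus met Pi16 in more thinned cells than the product, and Apoe in fewer. In the wider set the counts were 30 against 15.9 for Pltp and 38 against 23.1 for Lrp1. They were closer for Apod, 31 against 26.7, and for Apoe, 47 against 48.3. Unthinned, with at most 5% mt- UMIs, Apoe met Pi16 in 119 cells, where the product gives 96.4. These counts carry no interval. The summed UMIs of 11 other fascial and universal fibroblast markers, at least 2 per cell, then replaced Pi16. This rule set 717 UT cells, most of the library, against 328, so its classes are unlike those of Pi16. Of all genes, 15.1% were at least 2-fold higher in the 717 cells. Pltp was higher there with a log2 ratio of 1.97 (1.43 to 2.55), and Lrp1 was at 1.07 (0.68 to 1.47). Lpl was at 1.00 (0.23 to 1.85) and Plin2 at 0.72 (-0.46 to 2.12). Apoe and Apod were lower, at -0.19 (-0.35 to -0.04) and -0.74 (-0.95 to -0.52).

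**Figure D4:**
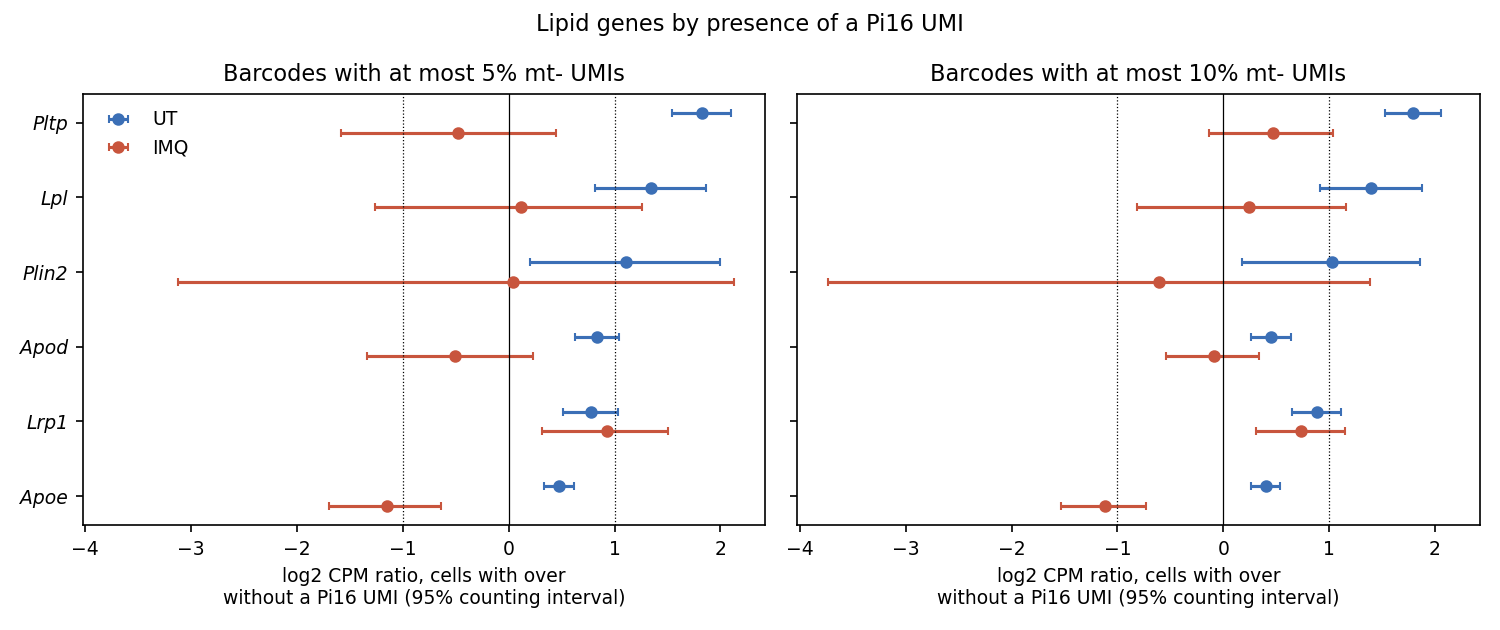
Log2 CPM ratio of cells with over cells without a Pi16 UMI for 6 lipid genes in UT (blue) and IMQ (red), at most 5% (left) and at most 10% (right) mt- UMIs, with exact 95% counting intervals and dotted lines at 2-fold. In UT all 6 lie to the right of 0, led by Pltp at 1.82, while in IMQ only Lrp1 has an interval above 0 and Apoe lies left of 0 in both panels.

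In IMQ the pattern was another one, on far fewer UMIs. At least 2-fold higher in cells with a Pi16 UMI were 0 of 6 measured members, where 17.4% of all genes were, and at least 2-fold lower was 1, Apoe, where 7.29% were. Apoe had 661 CPM with and 1462 CPM without a Pi16 UMI, a log2 ratio of -1.15 (-1.70 to -0.64) on 33 UMIs in cells with Pi16. That call was lost without barcodes with 3 UMIs of a non-fibroblast list, at -0.55 (-1.15 to -0.01), and in thinned cells, at -0.67 (-1.52 to 0.08). The share of cells with Apoe was 42.6% with and 41.4% without a Pi16 UMI, and 28.3% and 30.7% after thinning. With at most 10% mt- UMIs the unthinned shares were 32.6% and 43.1%. Lrp1 was higher, at 0.93 (0.32 to 1.5). It passed 2-fold at 1.31 without the non-fibroblast-list barcodes and at 1.46 where at least 2 Pi16 UMIs were asked for. In thinned cells it was at 1.05, with an interval that held 0 (-0.03 to 1.99). Pltp, at -0.48 (-1.58 to 0.45), rested on 10 UMIs in cells with Pi16, and no thinned cell held both genes, where the product gives 2.61. Apod, Lpl and Plin2 had intervals on both sides of 0. In the wider set, 3 members were at least 2-fold higher in UT against 7.15% of all genes and 1 lower against 13.4%. In IMQ 0 were higher against 16.1% and 1, Apoe, was lower against 6.27%. Pltp in IMQ then had a log2 ratio of 0.47 (-0.14 to 1.04) and Apoe one of -1.12 (-1.53 to -0.73).

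The libraries were then set side by side within each class of cells, and the difference between the classes was not tested. In cells with a Pi16 UMI Pltp had 852 CPM in UT and 200 CPM in IMQ, a log2 ratio of IMQ over UT of -2.09 (-3.17 to -1.18), where the median gene was at -0.24. In cells without a Pi16 UMI it had 241 and 280 CPM, a log2 ratio of 0.22 (-0.13 to 0.56), where the median gene was at -0.66. Apoe had log2 ratios of -1.65 (-2.21 to -1.15) in cells with and -0.03 (-0.17 to 0.11) in cells without a Pi16 UMI. For Lrp1 the ratios were -0.14 (-0.74 to 0.41) and -0.30 (-0.60 to -0.001), and for Lpl -0.58 (-1.95 to 0.55) and 0.64 (0.09 to 1.18). For Apod the ratios were -1.78 (-2.61 to -1.06) and -0.45 (-0.70 to -0.20), and 1 barcode held 108 of its 311 UMIs in UT cells with a Pi16 UMI. Pltp, Apoe and Apod were thus lower in IMQ in cells with a Pi16 UMI. In cells without one, Apod and Lrp1 were lower too in CPM, but both lay above the median gene at -0.66. Fabp5 was lower there, at -2.30 (-3.67 to -1.18), with 47 of its 69 UT UMIs in the keratinocyte-marker barcodes, and Lpl was higher. A Pi16 UMI in IMQ was mostly a single one, in 33 of 47 cells, against 96 of 209 in UT, and whether such cells are the same kind of cell in both libraries was not tested. In cells with a Pi16 UMI the wider set gave -1.22 (-1.81 to -0.67) for Pltp, -1.60 (-2.02 to -1.21) for Apoe and -0.88 (-1.34 to -0.45) for Apod. For Lpl in cells without one it gave 0.36 (-0.11 to 0.82), an interval that held 0.

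The 250 bases before the RefSeq transcription start are shown for Pi16 and for the members that were at least 2-fold higher beside it in UT, of which the RefSeq table used here holds Pltp and Plin2 (6 of the 9 members matched, build GRCm38.p6). Capitals mark CCAAT and GGGCGG on either strand. The windows are chr17:29318632-29318881 on the plus strand for Pi16, chr2:164857709-164857958 on the minus strand for Pltp and chr4:86670060-86670309 on the minus strand for Plin2, each written 5′ to 3′ along the gene. The Pi16 window lies inside the gene span given above, which starts at 29317680, so it is not sequence upstream of that span.
Pi16: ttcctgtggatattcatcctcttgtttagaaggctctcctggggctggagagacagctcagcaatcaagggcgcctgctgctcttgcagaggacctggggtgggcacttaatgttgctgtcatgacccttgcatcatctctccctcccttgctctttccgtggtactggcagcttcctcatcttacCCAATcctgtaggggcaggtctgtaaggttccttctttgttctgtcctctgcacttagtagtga
Pltp: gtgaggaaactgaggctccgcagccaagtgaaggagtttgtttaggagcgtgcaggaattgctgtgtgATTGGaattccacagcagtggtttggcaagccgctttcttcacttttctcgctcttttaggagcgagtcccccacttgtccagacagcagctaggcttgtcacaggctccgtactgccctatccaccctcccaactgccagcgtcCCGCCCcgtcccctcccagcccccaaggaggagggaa
Plin2: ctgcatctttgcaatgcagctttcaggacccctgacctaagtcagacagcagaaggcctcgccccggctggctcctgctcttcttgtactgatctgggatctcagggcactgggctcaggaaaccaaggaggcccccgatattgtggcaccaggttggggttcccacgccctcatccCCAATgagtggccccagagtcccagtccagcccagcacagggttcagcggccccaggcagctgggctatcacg
All 3 windows hold 1 CCAAT match, which 33.8% of the 32851 RefSeq windows do, and Pltp also holds GGGCGG, which 32.7% do. Direct repeats of AGGTCA spaced by 4 bases (the liver X receptor element) and by 1 base (the PPAR element), searched on both strands, were in 0 of the 8 windows of members, and in 0.0152% and 0.0335% of all windows. Among those 8 windows, that of Cd36 and some of those of Apoe also lie inside the gene spans given above. These matches describe the letters of the windows only.

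The genes most correlated with each member across cells were then listed. Over 1045 UT cells, the Pearson correlation of log-scaled UMIs was highest for Pltp with Gpx3 (0.39), Lbp (0.34) and Cilp (0.30), and for Lpl with Lbp (0.22), Ogn (0.19) and Selenop (0.19). For Apoe the leading genes were Serpinf1 (0.32), Gpx3 (0.28) and Pltp (0.26), for Apod Igfbp2 (0.26), Col6a2 (0.19) and Col6a1 (0.17), and for Lrp1 Aebp1 (0.35), Col1a2 (0.34) and Col1a1 (0.34). Over 571 IMQ cells they were Gpx3 (0.19), Lrp1 (0.17) and Gsn (0.15) for Pltp, and Col1a1 (0.23), Col3a1 (0.22) and Col1a2 (0.22) for Lrp1. Apoe and Apod led each other's list (0.16), followed by Esd (0.13) and Htra1 (0.13) for Apoe and by Psmb1 (0.14) and Itm2b (0.14) for Apod. All cells of a comparison share 1 library, and the values are weak and are given as a description. After thinning, 44.5% of UT cells and 48.1% of IMQ cells held no UMI of any member, and 14.3% and 10.6% held UMIs of 2 members.

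The other genes of lipid handling were read from 7 lists of 116 genes, and their counts are set against the 32.1% of all genes that were at least 2-fold lower and the 4.03% that were higher, or 29.7% and 4.65% without the 11 barcodes with markers of other cells. Those of cholesterol synthesis stood lowest, with 10 of 14 measured genes at least 2-fold lower in IMQ, 1 higher, and a median log2 ratio of -2.09, which is -1.48 relative to the median gene. Msmo1 (32 UMIs in UT and 1 in IMQ), Cyp51 (24 and 1), both enzymes of the sterol pathway, and Stard4 (23 and 1), a sterol carrier, were among them, and Scap, the escort of the sterol-sensing transcription factors, was higher (9 and 11, log2 ratio 1.55). The 2 keratinocyte-marker barcodes held 36.4% of the UT UMIs of this list, among them 13 of the 24 Cyp51 and 15 of the 23 Stard4 UMIs but 5 of the 32 Msmo1 UMIs. Without the 11 barcodes with markers of other cells, 6 of 11 genes were lower and 2 higher, with a median of -1.14 against -0.58 over all genes. The interval of Scap held 0 in the wider set, at 1.08 (-0.14 to 2.35).

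Among receptors and their chaperones, 3 of 6 were at least 2-fold lower and 0 higher. In the wider set 1 of 8 was lower and 2 were higher, where 34.7% and 3.78% of all genes were. Lrp6, a Wnt co-receptor related to Lrp1, had a log2 ratio of -1.12 (-2.26 to -0.13), and of -0.88 in the wider set. In the particle and efflux list, 3 of 10 were lower, near the share of all genes, and 2 higher, with a median of 0.04. Without the 11 barcodes 1 of 8 was lower and 1 higher. Nr1h3, which encodes a liver X receptor, was higher on 4 UT and 12 IMQ UMIs (log2 ratio 2.85, 1.12 to 4.93). Apoc1, Soat1 and Clu were lower, with 43, 20 and 18 UMIs in UT against 2, 1 and 1 in IMQ. Of the Apoc1 UMIs in UT, 37 came from the keratinocyte-marker barcodes. Of the 18 Clu UMIs, 12 came from barcodes with markers of other cells, 8 of them from the keratinocyte-marker ones.

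**Figure D5:**
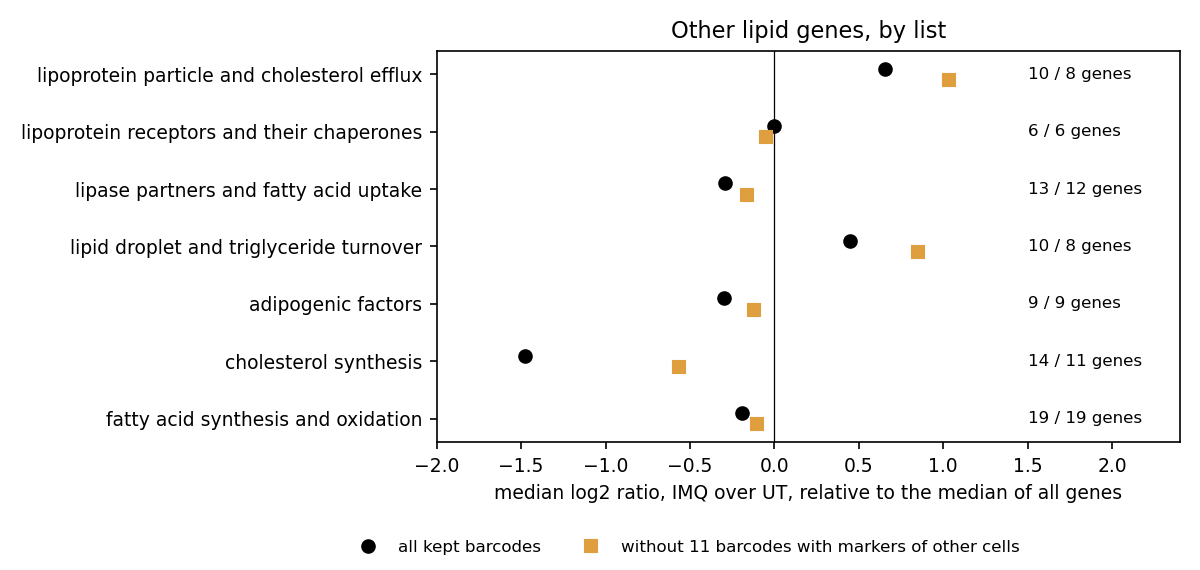
Median log2 ratio of IMQ over UT for the 7 lists of other lipid genes, relative to the median of all genes, with all kept barcodes (circles) and without the 11 barcodes that carried markers of other cells (squares). The numbers at the right give the genes measured in each case. Cholesterol synthesis lies lowest in both, at -1.48 and -0.57.

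In the list of lipase partners and fatty acid uptake, 6 of 13 were lower and 1 higher, and 4 of 12 and 1 without the 11 barcodes. Angptl4, an inhibitor of Lpl, was the higher one, with 6 UMIs in UT and 28 in IMQ (log2 ratio 3.48, 2.18 to 5.05), but the 28 UMIs came from 4 barcodes and 14 of them from 1. Dbi, an acyl-CoA-binding protein, was lower, with 341 CPM in UT and 91.1 CPM in IMQ (-1.90, -2.40 to -1.44). Slc27a1, a fatty acid transporter, had 26 and 3 UMIs, with a log2 ratio of -1.85 (-4.22 to -0.15), and of -1.10 (-2.36 to 0.01) in the wider set, and Acsl1, an acyl-CoA synthetase, had 20 and 0, of which 17 were in the keratinocyte-marker barcodes. Of the droplet and triglyceride genes, 1 of 10 was higher, Agpat2, an enzyme of glycerolipid synthesis, with 11 and 12 UMIs, and 1 was lower, with a median of -0.16. Without its leading barcode in each library Agpat2 was at 1.09 (-0.48 to 2.64).

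Of the adipogenic factors, 4 of 9 were lower and 1 higher, but 1 of 9 was lower without the 11 barcodes. In the wider set 6 were lower and 0 higher, where 34.7% and 3.78% of all genes were. Cebpb, a transcription factor of early adipogenesis that inflammation also induces, had 200 CPM in UT and 529 CPM in IMQ (log2 ratio 1.40, 1.14 to 1.67), and a log2 ratio of 0.86 in the wider set. In IMQ, 1 barcode held 53 of its 244 UMIs. Without the leading barcode of each library Cebpb was at 1.15 (0.86 to 1.44). Cebpa, which acts later, had 46 UMIs in UT and 7 in IMQ (-1.46, -2.85 to -0.30), 19 of the 46 in the keratinocyte-marker barcodes. In fatty acid synthesis and oxidation, 8 of 19 were lower and 2 higher. Acaca (27 and 1 UMIs), Fads1 (18 and 1) and Elovl6 (29 and 0), all of fatty acid synthesis, elongation or desaturation, were lower. Fads1 had 18 and 6 UMIs in the wider set and a log2 ratio of -0.95 (-2.57 to 0.45). The mitochondrial carnitine enzyme Cpt2 was higher on 4 and 7 UMIs, and its interval held 0 in the wider set, at 1.48 (-0.25 to 3.41). The part of other cell types in these differences was not tested beyond leaving out the marked barcodes.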

How the data were processed

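The authors sequenced 1 library of single dermal cells per group, made with the Chromium 3′ kit, version 3. Per the labels, reads were processed with CASAVA and Cell Ranger against mm10, and per the file headers the matrices came from software version 3.0.0 (UT) and 3.1.0 (IMQ). The deposited values are raw UMI counts per gene and barcode. The annotation release and strand setting are not given in the sources used here. Of 31053 gene identifiers, 30934 were found in GENCODE M21 (GRCm38), the source of coordinates.

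From these counts, barcodes were filtered as in the study (200 to 5000 genes, at most 5% mt- UMIs), with a wider set at 10%. The study's doublet caller was replaced by Scrublet (scanpy 1.11.5), as an alternative only. The IMQ matrix holds fewer barcodes than the study's filtered IMQ cells, so whether it is the matrix analysed there is not known. UMIs were summed per library and scaled to CPM. Intervals are exact Poisson (levels), Clopper-Pearson (shares) and conditional binomial (ratios) at 95%, from scipy 1.17.1. Ratios need at least 10 UMIs over both sides, a count of 0 is set to 3 counts, and called means at least 2-fold. For shares, 400 UMIs were drawn at random from each cell, which is the lower of the libraries' 10th percentiles (418 in UT, 435 in IMQ) rounded down. Scaling alternatives used edgeR 4.0.16 (TMM) and DESeq2 1.42.0 (median of ratios), for factors only. Ratios were tested on simulated data. Named were all members, up to 3 genes per list and direction with an interval that excludes 0, and the 3 genes most correlated with each member seen in at least 50 cells. The members and lists were chosen with earlier results of these data known. One result of the named lists is not reported here.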

Additional observations from a re-analysis of the deposited data

Results flagged for a closer look

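For 3 members the difference between cells with and without a Pi16 UMI had one direction in the UT library and the opposite one in the IMQ library. For Apoe the log2 ratio was 0.48 in UT and -1.15 in IMQ. For Apod it was 0.83 in UT and -0.51 in IMQ, and for Pltp 1.82 in UT and -0.48 in IMQ. With 1 library per group the difference between the libraries was not tested. Of these 3 IMQ intervals, that of Apoe lies wholly below 0, and in thinned cells it held 0, at -0.67 (-1.52 to 0.08). In barcodes with at most 10% mt- UMIs, Apoe was at 0.40 in UT and -1.12 in IMQ, Apod at 0.45 and -0.09 (-0.54 to 0.34), and Pltp at 1.79 and 0.47, both above 0. In thinned cells Apod was at 0.11 in UT and 0.54 in IMQ, both above 0.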

How the results depend on the processing

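No paired analysis was possible because both libraries carry replicate number 1 alone and share fewer than 2 numbers, and with 1 library per group no replicate could be left out. The median log2 ratio of the measured members, -0.40 in CPM, was 0.20 under TMM and 0.20 under median-of-ratios scaling, and -0.14 without mt-, ribosomal protein, Gm42418 and AY036118 UMIs. The number of members at least 2-fold higher in IMQ, 0 at first, was 2 with at most 10% mt- UMIs, 1 with over 5% to 10% and 2 with all deposited barcodes. Of all genes, 4.03% were higher at first, and 3.78%, 7.07% and 2.36% under these alternatives. The number at least 2-fold lower, 1 at first against 32.1% of all genes, was 2 with at least 500 genes (Fabp5 and Pltp), against 16.6%. That setting left 37 IMQ barcodes. The number lower was 0 with over 5% to 10% mt- UMIs and without barcodes with 3 UMIs of a non-fibroblast list, against 32.0% and 34.8%. In alternatives chosen after seeing the data it was 0 without the barcodes marked for other cells in both sets, against 29.7% and 35.2%. In the Pi16 contrast in UT the number at least 2-fold higher was 2 or 3 under each alternative run, but with the other fascial markers the 2 were Pltp and Lrp1. The share of all genes that were higher was 7.30% at first and 15.1% with those markers. In IMQ the number of members at least 2-fold higher was 0 at first, where 17.4% of all genes were. With at least 2 Pi16 UMIs it was 2 (Lrp1 and Plin2), where 20.5% of all genes were. That Plin2 value, 1.16, rests on 2 UMIs in the 14 cells with at least 2 Pi16 UMIs, and its interval held 0. The number was 1, Lrp1, in thinned cells and without barcodes with 3 UMIs of a non-fibroblast list, against 16.5% and 17.3% of all genes. Leaving out the non-fibroblast-list barcodes moved Apoe in IMQ from -1.15 to -0.55. With the other fascial markers in place of Pi16, Fabp5 turned from -2.98, a value set by 3 counts, to 0.60 (-0.34 to 1.68). Of single member values under the alternatives, 123 stayed inside the first counting interval and 42 left it without reversing a 2-fold call. Depth limits Plin2, Cd36, Fabp4 and Fabp5 most, and the differences between mice are in no interval.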
